A study of Mus musculus with 9 samples.

Results

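Read counts of 2 input libraries, input PV and input BV, were compared along the 19 autosomes of the mouse to find chromosomes and segments that differ in copy number between the PV and BV reporter lines. These 2 inputs are 2 of the 9 libraries of the series. The other 7 were used only to ask whether libraries of the same line gave the same levels. Both inputs were taken from cultures labelled as epiblast-like cells of strain C57BL/6. The PV line carries a Prdm14-mVenus reporter and the BV line a Blimp1-mVenus reporter, per the labels. Every culture began from embryonic stem cells that were first brought to the epiblast-like state and later kept as aggregates with LIF, with or without BMP4 and WNT3A. Which of these cytokines a given library received is not given in the sources used here. The PV line has 3 libraries, its input and precipitates of SMAD1 (at 36 h) and T. The BV line has 6, namely input BV, input BVSC, TCF1 and 3 SMAD1 libraries from 12, 24 and 36 h. No library has a replicate, whether a line is a single clone is not given in the sources used here, and reads of genomic DNA hold no expression, so the labelled cell type was not checked.

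An input library is made of sheared chromatin that skipped the immunoprecipitation, so the reads in a long stretch of chromosome follow how many copies of it the cells hold on average. Embryonic stem cells of the mouse are known to gain whole chromosomes during culture, chromosome 8 among the most often. A level between whole copy numbers can arise when only a share of the cells carries a change. The reporter mVenus is a yellow fluorescent protein. Prdm14 and Prdm1, the gene of the Blimp1 protein, are both transcriptional regulators that primordial germ cells need.

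The autosomes held 41402259 reads in input PV and 130884776 in input BV, counted once each. Among the other libraries they held from 14550688 reads in SMAD1 at 36 h in BV to 45477969 in input BVSC, where counting once was not established. Windows of 2 kb were kept where they were neither nearly empty in both inputs nor above 3 times the autosomal mean in both, which left 1126524 of 1236182. Counts were divided by their mean over these windows in the same library, and this scaled value is called the level. A bin of 1 Mb held a median of 17499 reads in input PV, so that counting error alone gives a ratio of the inputs an SD of 0.01 in log2. The noise of a single bin, taken from the differences between neighbouring bins, had a robust SD of 0.03. Neither value takes in slower variation along and between chromosomes. Over all bins of the autosomes not called as wholes below, the log2 ratio of the inputs had an SD of 0.085. Exact (Clopper-Pearson) 95% intervals below cover this counting error only. They say nothing about variation between cultures, and no test was possible with 1 library per group. In 8 libraries the overlapping windows split into 1 kb bins with none below 0. In input BVSC 25.3% of such bins came out below 0, so its windows were not counted in the same way, by a rule that is not given in the sources used here. What this does to its levels was not tested, and its intervals may not cover the counting error. For orientation, 1 extra copy beside 2 in every cell of PV alone would give a PV over BV ratio of 1.5, and loss of 1 of 2 copies a ratio of 0.5.

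As wholes, 3 chromosomes stood apart. Chromosomes 8 and 14 were higher in input PV, and chromosome 11 was lower in input PV than in input BV. The ratio was 1.16 on chromosome 8 (95% interval 1.157 to 1.160, 2484328 and 6778287 reads) and 1.16 on chromosome 14 (1.154 to 1.158). On chromosome 11 it was 0.858 (0.857 to 0.860). The other 16 autosomes lay between 0.977 on chromosome 10 and 1.02 on chromosome 7, and no ratio reached the value that a change of 1 copy in every cell of 1 line would give. Over all autosomes 192 of 2358 bins were higher in input PV by a log2 ratio of 0.15 or more, 8.14%, and 172 were lower, 7.29%. Of the 192 higher bins 187 lay on the 3 chromosomes, and of the 172 lower bins 111 did. The other 16 autosomes held 5 higher and 61 lower bins. With an SD of 0.085 among bins there, a threshold of 0.15 is not far outside their usual spread. Chromosome 11 was the most even of the 3 chromosomes. All of its 119 bins were below 1, with quartiles at 0.832 and 0.876. All 112 bins of chromosome 14 were above 1 (quartiles 1.12 and 1.18), against 119 of the 124 bins of chromosome 8 (1.12 and 1.20).

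**Figure D1:**
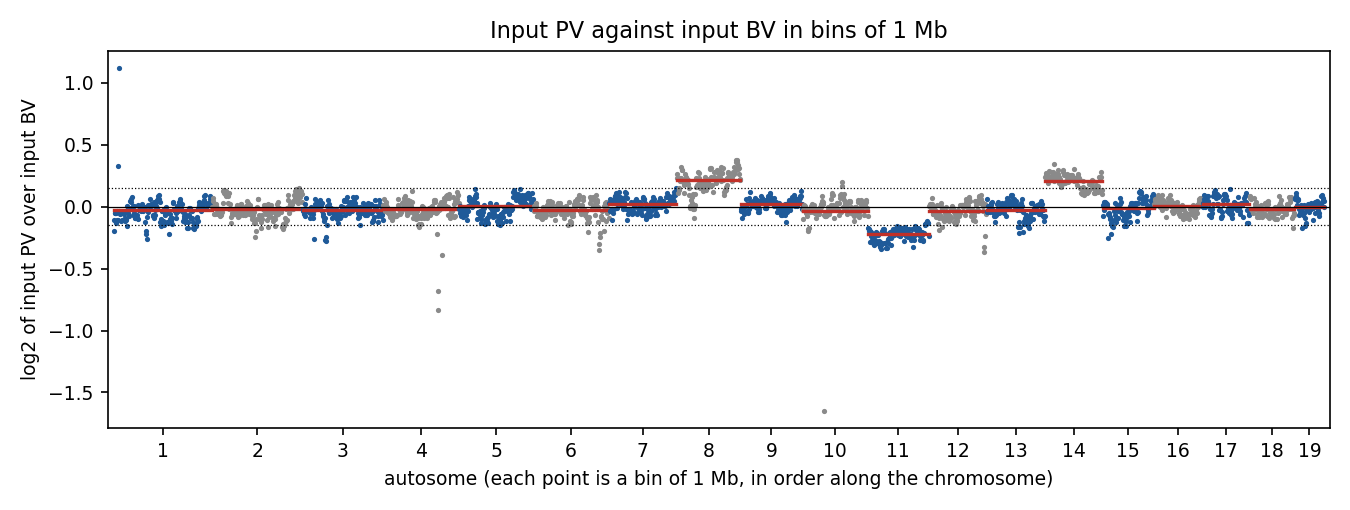
Log2 ratio of input PV over input BV in 2358 bins of 1 Mb, in order along the 19 autosomes, with red lines at the ratio of each chromosome and dotted lines at 0.15 in size. Chromosomes 8 and 14 sit above the others and chromosome 11 below, and single or neighbouring bins on chromosomes 1, 4 and 10 stand far from the bins around them.

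The level of these chromosomes was then read in every library. On chromosome 8 it was 1.15 in input PV, 1.19 in SMAD1 of PV and 1.09 in T, against 0.989 in input BV. In the other BV libraries it was 1.02 in SMAD1 at 12 h, 1.01 at 24 h, 0.992 at 36 h and 1.01 in TCF1. All PV libraries were therefore above these 5 BV libraries. The library that broke this order was input BVSC, labelled as the BV line, at 1.17. On chromosome 14 the PV libraries had 1.12 in the input, 1.03 in SMAD1 and 1.12 in T, and those 5 BV libraries lay between 0.930 and 0.968. Input BVSC had 1.12 there, the same as input PV. On chromosome 11 the order was the other way round. The BV libraries had 1.24 in the input, 1.34 in TCF1 and 1.20, 1.26 and 1.37 in the SMAD1 series, whereas the PV libraries lay between 1.07 and 1.13 and input BVSC at 1.00. In input PV chromosome 11 was also above the highest of the other 16 autosomes, chromosome 9 at 1.03. With input BVSC set aside, the libraries of PV and BV did not overlap on 4 of the 19 autosomes, the 3 named and chromosome 12, where the ratio of the inputs was 0.979. With it, they overlapped on all 19.

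**Figure D2:**
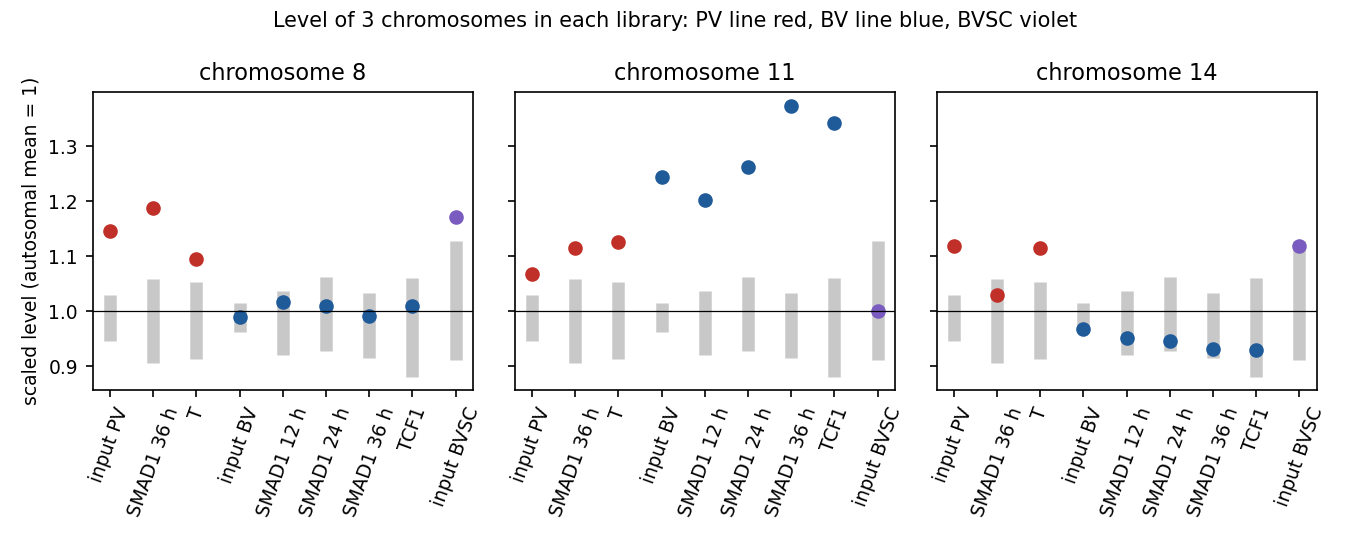
Level of chromosomes 8, 11 and 14 in each of the 9 libraries, scaled to an autosomal mean of 1; points are single libraries, and grey bars span the other 16 autosomes of the same library. PV libraries (red) are above BV libraries (blue) on chromosomes 8 and 14 and below them on chromosome 11, and input BVSC (violet) has 1.17, 1.00 and 1.12.

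The inputs were next replaced by pairs that share no library with them. SMAD1 at 36 h in PV over SMAD1 at 36 h in BV gave 1.20 on chromosome 8, 0.811 on chromosome 11 and 1.10 on chromosome 14. T over TCF1, which differ in antibody as well as in line, gave 1.08, 0.839 and 1.20. Both pairs therefore had the 3 chromosomes on the same side as the inputs, while the other 16 lay between 0.977 and 1.03 for SMAD1 and between 0.978 and 1.04 for T over TCF1. Across the 2358 bins the log2 ratios of the inputs correlated with those of the SMAD1 pair at r = 0.891 and with T over TCF1 at r = 0.459. On the 16 remaining autosomes the values were 0.819 and 0.104 over 2003 bins. These coefficients are descriptions: bins of 1 library share its depth and base composition.

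Libraries of the same line did not carry these chromosomes at one level. Within PV, T over SMAD1 was 0.921 on chromosome 8 (95% interval 0.919 to 0.923) and 1.08 on chromosome 14 (1.081 to 1.086), whereas the other 16 autosomes lay between 0.988 and 1.01. T thus had less of chromosome 8 and more of chromosome 14 than SMAD1 of the same line, and on chromosome 11 the ratio was 1.01. Within BV, chromosome 11 in SMAD1 at 36 h over 12 h was 1.14 (1.139 to 1.145), against 0.975 to 1.00 on the other 16. TCF1 over SMAD1 at 12 h was 1.12 there, against 0.957 to 1.02. SMAD1 at 24 h over 12 h was 1.05, nearer to the range of the other autosomes, 0.966 to 1.03. These libraries also differ in antibody or time, and the part of either in these ratios was not tested.

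Along chromosome 8 the higher level was broken by an interval. Bins of 1 Mb were joined into segments of even level, and a segment was called at a mean log2 ratio of 0.15 or more in size. Of the 60 segments 6 were higher in input PV, 10%, and 8 were lower, 13.3%. Chromosome 8 was split into segments from 3000001 to 30000000 (ratio 1.16), 43000001 to 117000000 (1.17) and 117000001 to 132000000 (1.24), all called higher. Between them, from 30000001 to 43000000, the ratio was 1.02 (1.016 to 1.026), and none of its 13 bins reached the threshold, with bin values from 0.941 to 1.08. In bins of 100 kb the same interval ran from 30700001 to 42400000, 11.7 Mb, with a ratio of 1.01 beside 1.15 and 1.14 in the segments next to it. The SMAD1 pair gave 1.04 in that interval beside 1.18 and 1.20, and T over TCF1 1.01 beside 1.07 and 1.16. In all 3 pairs the interval was below both segments next to it. For the inputs and SMAD1 no other segment of chromosome 8 longer than 1 Mb was as low. T over TCF1 was as low elsewhere, with 1.01 from 10800001 to 14100000, where the inputs had 1.23 and SMAD1 1.24, and it therefore does not set the interval apart. Input BVSC did not show it. Its ratio over input BV was 1.18 inside the interval and 1.18 in both neighbours, and input PV over input BVSC was 0.857 inside (0.852 to 0.862) beside 0.977 and 0.965.

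At 1 Mb neither chromosome 11 nor chromosome 14 had a break of this kind. In bins of 100 kb chromosome 14 had ratios below 1 in 2 short stretches, 0.902 from 45100001 to 45300000 (2 kept bins) and 0.878 from 53200001 to 53800000 (3 kept bins). Chromosome 11 fell into segments to 50000000 and from 50000001, with ratios of 0.840 and 0.869. Its levels in input BV were 1.19 and 1.28, and in input PV 0.997 and 1.11. Chromosome 14 was raised from its first kept bin, at 9000001, to 81000000 (1.18) and more weakly from 81000001 to its end (1.12). In this distal part the pairs went apart, since the SMAD1 pair had 1.09, below the threshold, and T over TCF1 1.26. Its mean log2 ratio of 0.16 was the value just inside the threshold. Just outside stood a segment of chromosome 15 from 14000001 to 25000000, at -0.13.

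**Figure D3:**
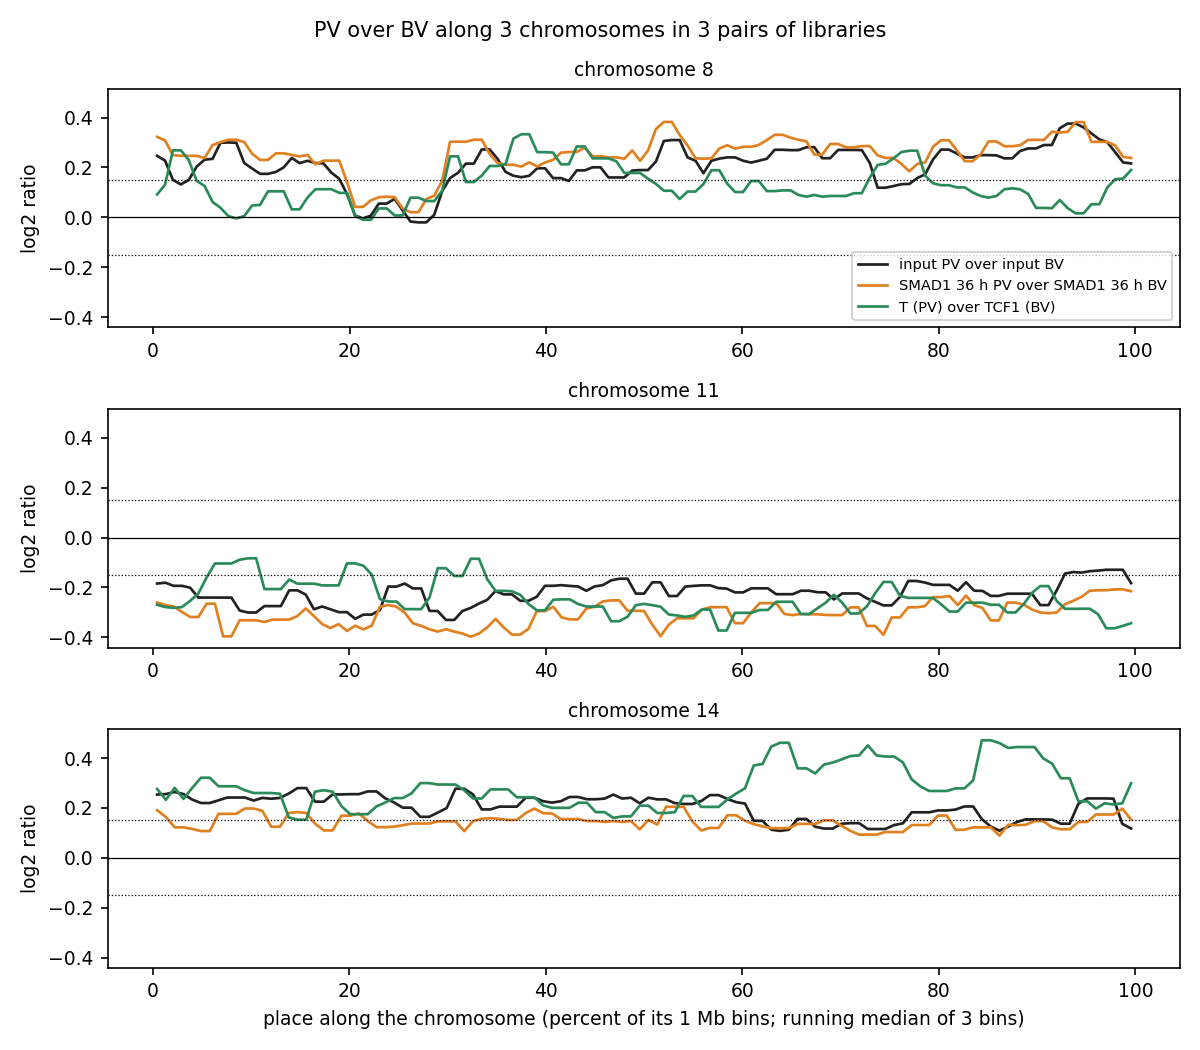
Log2 ratio of PV over BV along chromosomes 8, 11 and 14 as a running median of 3 bins of 1 Mb, for the inputs (black), SMAD1 at 36 h (orange) and T over TCF1 (green), against the place along the chromosome in percent of its bins. On chromosome 8 the lines of the inputs and SMAD1 drop towards 0 in 1 interval, while that of T over TCF1 is near 0 there and in other places. All 3 lines stay below 0 along chromosome 11 and above 0 along chromosome 14.

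Genes were placed by chromosome alone, since no annotation of build mm9 was at hand and coordinates were not carried over from another build. Chromosomes 8, 11 and 14 hold 1043, 1609 and 851 of the 20665 autosomal protein-coding genes of the RefSeq table for GRCm38. Of 68 genes in lists of germ cell, BMP, WNT and growth genes, all found in that table, 15 lie on them. Chromosome 11, higher in BV, carries 4 of the 17 WNT genes. They are Wnt3 and Wnt3a, which encode ligands, Tcf7, the gene of the TCF1 protein, and Axin2, a feedback inhibitor and target of the pathway. It also carries Nog, a secreted BMP antagonist, and 4 of the 17 growth genes, Trp53, Brca1, Top2a and Birc5. Chromosome 8, higher in PV, carries Smad1, whose protein passes the BMP signal to chromatin, Nkd1, an inhibitor of WNT signalling, and Nanos3, an RNA-binding protein needed for germ cell survival. On chromosome 14 lie Bmp4, the ligand used in the cultures, its receptor gene Bmpr1a, and the tumour suppressor Rb1. Whether Nanos3, Nkd1 or Smad1 lies in the interval of chromosome 8 that was not raised was not determined here. A changed number of copies says nothing here about RNA or protein, which were not measured.

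Short segments were sought in bins of 100 kb, at a mean log2 ratio of 0.4 or more in size. Of 190 segments 3 were higher in input PV, 1.58%, and 20 were lower, 10.5%. All 23 were shorter than 5 Mb, and together they spanned 10.8 Mb on chromosomes 1, 3, 4, 5, 6, 7, 8, 10, 12 and 13. Among single bins of this size 32 of 23520 were higher in input PV, 0.136%, and 90 were lower, 0.383%. The segments were chosen on the 2 inputs, so their ratios there are a description.

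The strongest segment raised in PV lay on chromosome 1 from 12900001 to 13200000. In bins of 10 kb its core, a run of neighbouring bins past 2-fold, spanned 180 kb from 12960001 to 13140000. There the level was 9.28 in input PV, 9.75 in SMAD1 of PV and 11.5 in T. It was 1.10 in input BV, 1.09 in input BVSC, 1.27 in TCF1 and 1.23, 1.39 and 1.23 in the SMAD1 series of BV. The lowest PV library thus exceeded the highest BV library several-fold, and the ratio of the inputs was 8.42 (8.24 to 8.60). The 40 bins of 10 kb beside the core lay between 0.754 and 1.34 in input PV, against 2.64 to 10.6 inside it.

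Its counterpart in the BV line lay on chromosome 10, in segments from 44100001 to 44300000 and from 44300001 to 44500000. The core spanned 230 kb from 44090001 to 44320000. Input BV had 11.2 there, TCF1 11.5 and the SMAD1 series 11.04, 11.2 and 11.9. In PV the input had 1.16, SMAD1 1.34 and T 1.31. Input BV was 9.72-fold above input PV (9.44 to 10.00). Input BVSC stood between the lines here, with a level of 5.65 and a ratio to input BV of 0.503 (0.496 to 0.510). A segment from 43900001 to 44100000, at a log2 ratio of -0.39, was the value just outside the threshold, and it holds the first 10 kb of this core.

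Both lines carried their largest rise on the chromosome of the gene that their reporter is named for. The RefSeq table puts Prdm14 on chromosome 1, between Slco5a1 and Ncoa2, and Prdm1 on chromosome 10, between Atg5 and Prep. Whether the raised runs hold these genes, or the reporters, was not tested. No other core went past a ratio of 4 in either direction.

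**Figure D4:**
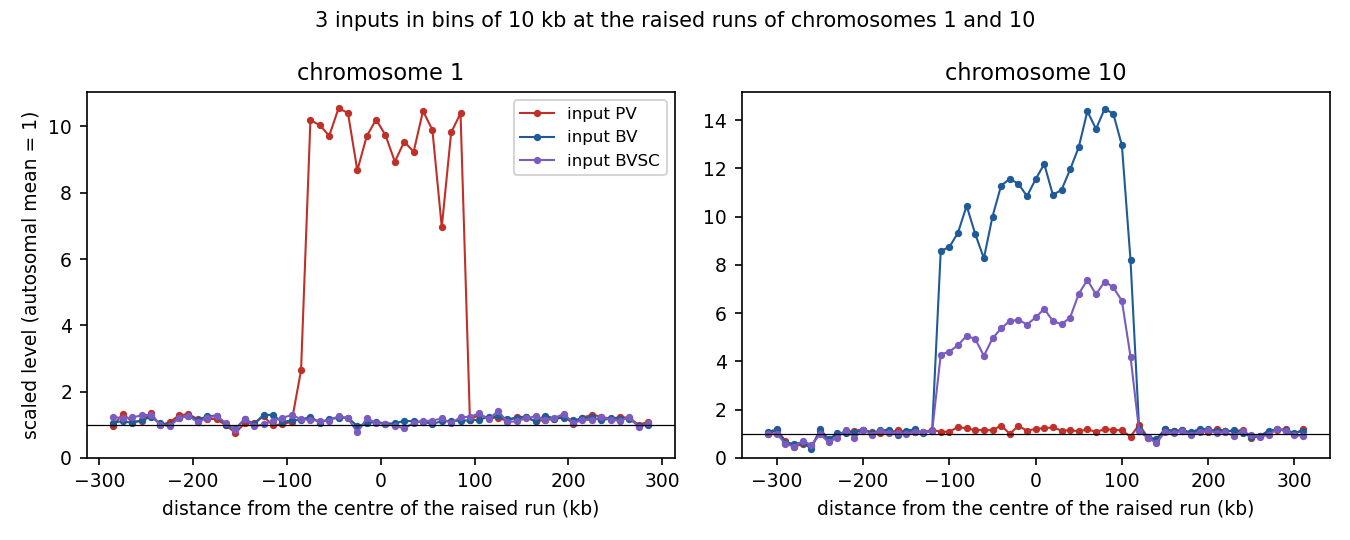
Level of input PV (red), input BV (blue) and input BVSC (violet) in bins of 10 kb, against the distance in kb from the centre of the raised run of chromosome 1 (left) and chromosome 10 (right). Input PV alone is raised on chromosome 1, with 9.28 over the run. On chromosome 10 input BV has 11.2 and input BVSC 5.65.

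A smaller rise in BV was found on chromosome 3 from 25300001 to 25500000. Its core of 50 kb from 25410001 to 25460000 had 3.29 in input BV, 3.16 in input BVSC, 2.76 in TCF1 and 2.95, 2.96 and 2.90 in the SMAD1 series. The PV libraries had 0.946, 0.858 and 0.809 in the input, SMAD1 and T. All 6 BV libraries, input BVSC included, were thus near 3 times the autosomal mean, while the PV libraries were near 1. The 500 kb on either side of the segment had 0.853 in input PV. Chromosome 4 from 121600001 to 121800000 had a similar order at a lower height, with 1.40 in input BV and 0.695 in input PV beside flanks of 0.803 and 0.763. SMAD1 of PV and T had 0.752 and 0.654 there, and the other BV libraries between 1.34 and 1.44.

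A run of neighbouring segments lower in PV lay on chromosome 4. Segments from 111700001 to 112300000 and from 112500001 to 113600000 had ratios of 0.522 (0.504 to 0.541) and 0.521 (0.508 to 0.534), and another from 113600001 to 114000000 had 0.747. In the longest of them, 1100 kb, the level was 0.386 in input PV, 0.332 in SMAD1 of PV and 0.318 in T. It was 0.741 in input BV, 0.716 in input BVSC and between 0.508 and 0.635 in the other BV libraries. The level of input BV was itself below that of its flanks, 0.858.

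Chromosome 12 held 6 of the lower segments. Near its end, segments from 114900001 to 115100000, from 115400001 to 115900000 and from 116200001 to 117300000 had ratios of 0.559, 0.737 and 0.694. A core of 40 kb from 114940001 to 114980000 had 0.372 in input PV, 0.342 in SMAD1 of PV and 0.379 in T, against 1.07 in input BV and between 0.932 and 1.12 in the SMAD1 libraries and TCF1 of BV. Input BVSC had 0.817 there. Further segments lay on chromosome 12 from 20600001 to 20900000 (ratio 0.529), 89200001 to 89400000 (0.702) and 105000001 to 105200000 (0.723). At the first of these input BVSC had 0.223, as low as input PV at 0.229, against 0.434 in input BV.

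On chromosome 6 the segments from 129900001 to 130200000 and from 131700001 to 132000000 had ratios of 0.590 and 0.625. The remaining lower segments lay on chromosomes 5, 7 and 13 and had ratios from 0.723 to 0.862. The last value, on chromosome 13 from 66300001 to 67100000, comes from only 2 kept bins and summed reads, and the mean log2 ratio of these bins was -0.81. Higher in PV beside the segment of chromosome 1 were chromosome 8 from 19700001 to 22200000, with a ratio of 1.58 (1.53 to 1.63) over only 4 kept bins, and chromosome 4 from 145000001 to 145200000, with 1.33. The first of these had 1.27 in input PV, 1.30 in SMAD1 of PV and 1.25 in T, against 0.797 to 0.883 in the BV libraries other than input BVSC, at 0.958. Chromosome 8 was itself raised as a whole, with a ratio of 1.16, and the part of this in the segment was not tested.

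Many of the lower segments were low in both lines and lower in PV. In 17 of the 20 the level of input PV was below that of the 500 kb on either side. Input BV was below its own flanks in 13 of the 20 and above them in 7. Median levels over the 20 were 0.488 in input PV and 0.739 in input BV.

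The 6 immunoprecipitated libraries, which did not choose these segments, gave the same order. At all 23, SMAD1 of PV and T were both above the 4 immunoprecipitated BV libraries where input PV was higher, and both below them where it was lower. Over all bins of 100 kb 9.72% had both PV libraries above those 4 and 10.7% below. The SMAD1 pair passed the threshold in the same direction at 19 of the 23 and T over TCF1 at 17, with all 17 shared by both pairs. These ratios are of summed reads, whereas the segments were called on the mean log2 ratio of their bins. Of all bins the SMAD1 pair had 0.472% higher and 1.16% lower past the threshold, and T over TCF1 1.82% and 0.791%. Among all bins of this size 0.0468% were higher and 0.315% lower past the threshold in both pairs. Both pairs missed it on chromosome 5 and at the 3 segments of chromosome 13. On summed reads the inputs also missed it at those 3 segments, with ratios of 0.781, 0.783 and 0.862 against a threshold of 0.758. T over TCF1 also missed it on chromosome 4 from 113600001 and on chromosome 12 from 115400001.

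**Figure D5:**
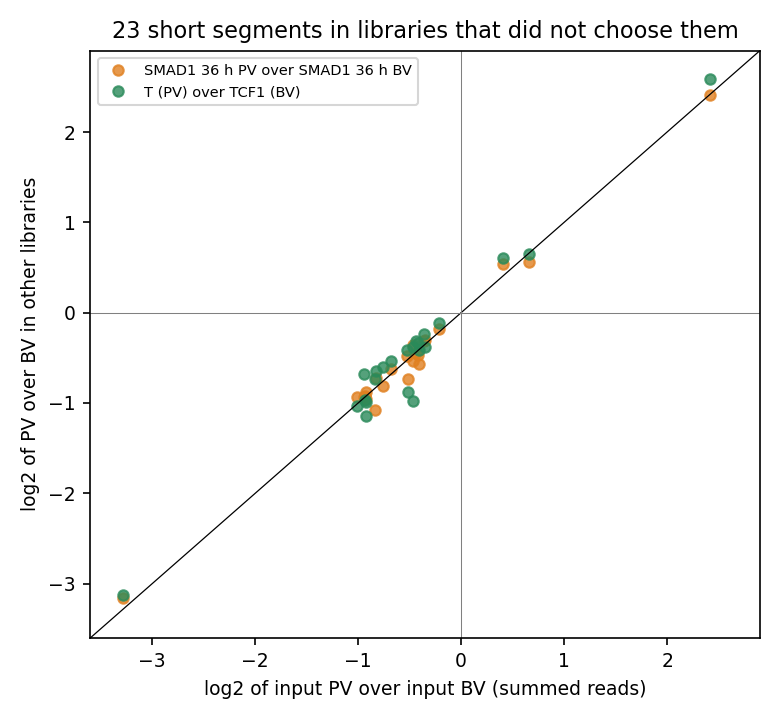
Log2 ratio of PV over BV at the 23 short segments, in the inputs that chose them (x axis) and in SMAD1 at 36 h (orange) or T over TCF1 (green) on the y axis, with a line at equal values. All points are on the same side of 0 on both axes.

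The segments of 1 Mb bins held less evenly. Of the 14 called, both PV immunoprecipitated libraries lay beyond the 4 of BV in all 14, beside 11.2% of all 1 Mb bins above and 12.1% below. On summed reads the SMAD1 pair passed the threshold at 13 and T over TCF1 at 9, both at 8. The 14 are not a set apart from the short segments. Short segments lie within the one of chromosome 1 from 12000001 to 15000000 and of chromosome 8 from 3000001 to 30000000. The same holds for those of chromosomes 4, 6, 10 and 12. Those of chromosomes 1, 4, 10 and 12 that hold short segments are among the 8. Among all bins 3.52% were higher and 5.26% lower past it in both pairs. Each pair by itself had 7.04% of bins higher and 7.12% lower for SMAD1, and 12.8% and 7.38% for T over TCF1. Lower segments on chromosome 1 from 65000001 to 69000000 (0.869) and on chromosome 3 from 47000001 to 51000000 (0.853) had 0.879 and 0.881 in the SMAD1 pair but 0.990 and 0.996 in T over TCF1. These 2 segments were thus lower in the inputs and SMAD1 but close to 1 in T over TCF1. T over TCF1 also missed the threshold at 2 of the 3 called segments of chromosome 8, with 1.06 from 3000001 to 30000000 and 1.05 from 117000001 to 132000000, and on chromosome 6 from 129000001 to 134000000, with 0.928.

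Input BVSC was not nearer to the same input at all called segments. At 17 of the 23 short segments its level was nearer to input BV than to input PV. At the 7 called segments of chromosomes 8, 11 and 14 it was nearer to input PV. It shared with the BV line the 50 kb rise of chromosome 3 and, at a lower height, the rise of chromosome 10, and it was nearer to PV on the 3 chromosomes but without the interval of chromosome 8.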

How the data were processed

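All 9 files hold read counts as the authors deposited them, whole numbers without normalization, in windows 2 kb long with starts 1 kb apart. The submitters' processing notes name Bowtie 0.12.8 and build mm9, the build of all coordinates here. How duplicates and repeats were handled is not given in the sources used here. Every other window was used, so that a read counts once. For input BVSC this was not established. Windows were also split into 1 kb bins, from windows of 0 onwards: 25.3% of 2336379 bins were below 0 in input BVSC and none in the other 8 libraries. The mean squared difference of windows 1 kb apart, over that of windows 2 kb apart, was 0.462 in input BVSC and 0.451 to 0.487 in the others. Windows were kept where the higher of the 2 scaled inputs was at least 0.25 and the lower at most 3. Bins of 1 Mb needed 50% of their windows and bins of 100 kb at least 20 of 50. Segments were found by penalised least squares (penalty 6 times the noise variance times the log of the number of bins, at least 3 bins of 1 Mb or 2 of 100 kb), with Python 3.11.15, numpy 2.4.6 and scipy 1.17.1. The method was also run on simulated bins with planted segments. Their noise was independent from bin to bin, without the slower variation of the real bins. How often that variation alone gives a called segment was therefore not tested. Cores were runs of at least 3 bins of 10 kb past 2-fold, a rule added after the segments were seen. Genes named are those of fixed lists, by chromosome. Members and lists were chosen with earlier results of these data known. Alternatives changed the filter, windows, depth, scaling, thresholds and penalty. The X and Y chromosomes were left out. No GC correction was made, since no genome of build mm9 was used here.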

Additional observations from a re-analysis of the deposited data

Results flagged for a closer look

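Over the 6 libraries labelled BV, 1 library stood far from the other 5 (its gap to the nearest, over the range, above Dixon's 95% critical value) at 7 of 19 autosomes and at 7 of 37 called segments, and it was input BVSC each time. Chance gives about 1 in 20 for a single item, and the libraries differ in antibody and time. The items are not independent, since segments lie on the chromosomes counted and some lie within others. Their counts can therefore not be set against that rate. The windows of input BVSC were also counted in another way than those of the other 8 libraries, and the part of this in its levels was not tested. Input BVSC was above the other BV libraries on chromosome 3 (level 1.12, others up to 0.963), chromosome 6 (1.13, up to 0.989), chromosome 8 (1.17, up to 1.02) and chromosome 14 (1.12, up to 0.968). It was below them on chromosomes 12 (0.918), 15 (0.919) and 18 (0.912), where the others began at 0.964, 0.978 and 0.966. A higher level on some chromosomes lowers all others, since each library was scaled to the same mean.

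Among segments, input BVSC was above the others on chromosome 8 from 3000001 to 30000000 (1.15) and from 43000001 to 117000000 (1.17). The same held on chromosome 6 from 129000001 to 134000000 (1.03) and, within it, from 131700001 to 132000000 (level 1.096). On chromosome 10 it was below them, with 1.31 from 44000001 to 47000000, 5.75 from 44100001 to 44300000 and 1.45 from 44300001 to 44500000.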

How the results depend on the processing

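The direction of chromosomes 8, 11 and 14 and of the 23 short segments was the same under every alternative that was run. With the median ratio of the bins as scale chromosome 8 had 1.17, chromosome 11 0.865 and chromosome 14 1.16, each beyond its counting interval, and chromosome 11 had 0.861 without a filter on windows. That scaling moves every ratio by one factor, and all 16 other autosomes then left their counting intervals. Over all alternatives 63 of their 80 values stayed within these and all lay between 0.977 and 1.03. Counts depended more on the rules. Lower bins of 1 Mb numbered 307 at a threshold of 0.1 and 103 at 0.2, against 172. Lower segments of 1 Mb bins numbered 5 at double the penalty, against 8. Higher segments of 100 kb bins numbered 5 at a threshold of 0.3 and 1 at that of a 1.5-fold change, against 3. Lower ones numbered 13 at double the penalty, 39 without a filter on windows and 11 at the 1.5-fold threshold, against 20. Past the threshold in both other pairs, an alternative chosen after seeing the data, were 27 segments of 100 kb bins without a filter and 10 at the 1.5-fold threshold, against 17. The segments called differ in number too. Without a filter 39 lower and 3 higher were called, at the 1.5-fold threshold 11 and 1, and in the main run 20 and 3. Ratios of the 23 short segments were recomputed over all kept windows between their ends, and 112 of 115 stayed within their counting intervals. The 3 others were chromosome 12 from 20600001, with 0.481 under a stricter filter against 0.529, and chromosome 13 from 66300001, with 0.775 without a filter and 0.867 under a stricter one, against 0.823. The last is not the 0.862 of its 2 kept bins, since it takes in windows of bins that were left out. No paired analysis was possible because each group has 1 library. Depth limits short segments: a bin of 100 kb held a median of 617 reads in SMAD1 at 36 h in BV and 1778 in input PV.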
